A study of Mus musculus with 2 samples.

Results

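The genes described here encode the nuclear part of the mitochondrial respiratory chain and its ATP synthase. They were taken from the annotation of the Affymetrix MOE430A array as all genes whose symbol begins with Nduf, Uqcr, Atp5, Cox4i, Cox5, Cox6, Cox7 or Cox8, together with *Sdha*, *Sdhb*, *Sdhc*, *Sdhd* and *Cyc1*. This rule found 85 genes of 12393 measured, read by 157 probe sets. The choice used names and no measured value. A further 8 probe sets that name such a gene beside another gene were left out.

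The study compared cochleae of *Igf1*-/- and *Igf1*+/+ mouse embryos of a C57BL/6J background at embryonic day 18.5, dissected with the otic capsule and without vestibular tissue. Heterozygous parents were mated, and both genotypes otherwise shared their background. Values of 2 arrays were analysed, and their labels contradict each other: the source name and description of the one titled -/- describe a wild type, and those of the one titled +/+ describe a null. They are therefore called the titled -/- array and the titled +/+ array, and the genotype behind each is not settled. Every difference is titled -/- minus titled +/+ on the log2 scale, so that a value above 0 means a higher level in the titled -/- array. The labels give 8 cochleae per array, while the design text gives pools of 2 embryos with 3 pools. *Igf1*, the disrupted gene, was at 11.03, 7.37 and 7.23 in the titled -/- array, against 11.42, 8.11 and 7.78 in the titled +/+ array, for its 3 probe sets. All 3 were lower in the titled -/- array, by a centred difference of -0.42, -0.75 and -0.58. Whether these probe sets lie in the disrupted part of the gene was not examined.

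Since each title has 1 array, the comparison has no replicates, no test and no p-value. The median difference over all probe sets, 0.022, was subtracted from each difference. Only genes with several probe sets have a repeat measurement. The differences of probe sets with a mean level of 9 and above had a pooled SD of 0.084 within genes, over 1268 probe sets of 522 genes. Levels also depend on the probes, so their order across genes serves here only to choose or describe probe sets and is no order of transcript abundance. In whole-tissue RNA, fewer cells of a type and less RNA per cell cannot be told apart. Of 8 genes that mark the cochlea, 7 exceeded the median gene level of 7.10, and the otospiralin gene *Otos* was at 4.16 in the titled -/- array and 4.21 in the titled +/+ array. These 8 genes did not share a direction: 3 had a difference above 0 and 5 below, with a median of -0.15.

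The respiratory chain passes electrons from NADH through complex I, and from succinate through complex II, to ubiquinone, then through complex III and cytochrome *c* to complex IV, which reduces oxygen. Complexes I, III and IV pump protons across the inner mitochondrial membrane, and complex V, the ATP synthase, uses their return to make ATP. A few subunits of complex IV exist as tissue isoforms, among them a set found in heart and skeletal muscle. The cochlea is known for the high energy demand of the stria vascularis, whose marginal cells are rich in mitochondria. The 13 proteins that mitochondrial DNA itself encodes were looked for by symbol, and 0 of these symbols were paired with a probe set here.

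Most respiratory chain genes were slightly higher in the titled -/- array. Of the 85 genes, 70 had a difference above 0 and 15 a difference below 0, that is 82.4% above 0, while 50.5% of all 12393 genes were above 0. The median difference was 0.071, a ratio of 1.05, and over all genes it was 0.0028. The 25th percentile was 0.026 and the 75th 0.13. Of the 70 genes with a mean level of 9 and above, 63 (90%) were above 0, while 48.4% of the 2070 genes of that range were. The remaining 2000 genes of that range had a median of -0.010, with a 25th percentile of -0.089 and a 75th of 0.073. The direction was thus shared by many genes, most of them with small differences.

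Few of these genes differed by a large amount. A difference above 0.25 was found for 6 genes, against 20.0% of all genes, and a difference below -0.25 for 2 genes, against 15.8% of all genes. Among genes of level 9 and above, 1 gene lay above 0.25 and 1 below -0.25, where 4.83% and 3.33% of all genes of that range did. No member passed the study's limit of 1 log2 unit in either direction, while 5.54% of all genes were above 1 and 4.07% below -1. Of the members, 79 lay above the median gene level. Among all 6196 genes of that range only 20 were above 1 and 4 below -1, so such differences were rare there for any gene.

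**Figure D1:**
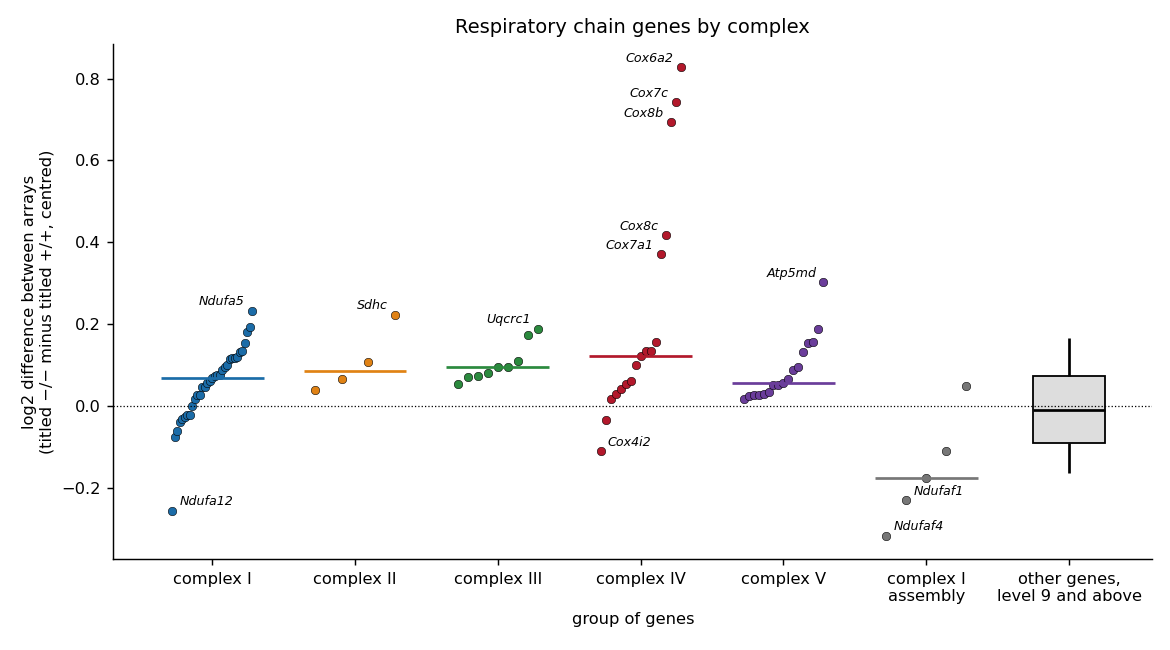
Centred log2 difference (titled -/- minus titled +/+) for 85 respiratory chain genes, with 1 point per gene, the genes of each complex in order of their difference and a line at the median of the complex. The box on the right gives the 25th, 50th and 75th percentile of the 2000 other genes of level 9 and above, with lines to the 10th and 90th; all genes of complexes II, III and V lie above 0, while 4 of 5 complex I assembly genes lie below.

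Complex I, the NADH dehydrogenase, had 33 genes here. Of these, 24 were above 0 and 9 below, with a median of 0.069 and a range of -0.26 to 0.23. Among the 6 core subunits, which carry the flavin and the iron-sulphur clusters or bind ubiquinone, 4 were above 0 and the median was 0.022. *Ndufs7* was at 9.81 in the titled -/- array and 9.69 in the titled +/+ array, a difference of 0.095. *Ndufv1*, the subunit that binds NADH, was at 10.15 in the titled -/- array and 10.06 in the titled +/+ array, a difference of 0.073. In the other direction, *Ndufs3* was at 9.99 in the titled -/- array and 10.05 in the titled +/+ array, a difference of -0.076. The core subunits therefore did not share a direction at these sizes.

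The 27 accessory subunits of complex I, which surround the core, had 20 genes above 0 and a median of 0.076. *Ndufa5* had the highest of these differences, 0.23, at 10.03 in the titled -/- array and 9.77 in the titled +/+ array, and its weaker probe set gave 0.27. *Ndufb7* was at 10.58 in the titled -/- array and 10.36 in the titled +/+ array, a difference of 0.19, and its other probe set gave 0.27. *Ndufb8* differed by 0.18. *Ndufb11* and *Ndufa1*, whose probe sets had the highest levels in complex I, differed by 0.046 and -0.062. Both values are smaller than the pooled SD of 0.084, and the other probe sets of *Ndufb11* gave 0.054 and -0.012. *Ndufb11* was at 11.38 in the titled -/- array and 11.31 in the titled +/+ array, and *Ndufa1* at 11.16 in the titled -/- array and 11.20 in the titled +/+ array.

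*Ndufa12* had the lowest difference of complex I, -0.26, at 10.31 in the titled -/- array and 10.54 in the titled +/+ array. Its 4 probe sets did not share a direction. The next in level was at 10.34 in the titled -/- array and 10.35 in the titled +/+ array, a difference of -0.032. Another was at 9.85 in the titled -/- array and 9.52 in the titled +/+ array, a difference of 0.30, and the weakest at 6.09 in the titled -/- array and 5.78 in the titled +/+ array, a difference of 0.29. *Ndufa12* was the only member whose probe sets lay beyond 0.25 in both directions, so no direction can be given for this gene.

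Complex I is built with the help of assembly factors that are not part of the finished enzyme. Most of those among the members stood on the other side of 0. Of 5 such genes, 4 were lower in the titled -/- array, with a median of -0.18. *Ndufaf4* was at 7.62 in the titled -/- array and 7.91 in the titled +/+ array, a difference of -0.32, but its weaker probe set gave 0.14. *Ndufaf1* was at 7.33 in the titled -/- array and 7.54 in the titled +/+ array, a difference of -0.23. *Ndufaf5* and *Ndufaf7* differed by -0.18 and -0.11, and *Ndufaf3* by 0.050. All 5 had mean levels from 6.48 to 7.77, and below a level of 9 the pooled SD between probe sets of a member was 0.27. The other assembly factors of the chain, a list of 39 genes for complexes I to V of which 29 were measured, had 17 genes above 0 and a median of 0.063, which was 0.0047 when probe sets were averaged. In that list the copper chaperone gene *Cox17* differed by 0.23 and *Uqcc2*, which serves complex III, by -0.10. Factors of complex I in that list went both ways. *Acad9* and *Timmdc1* differed by 0.12 and 0.18, and *Foxred1* and *Ecsit* by -0.016 and -0.13.

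Complex II, succinate dehydrogenase, is encoded by 4 nuclear genes and links the chain to the citric acid cycle. All 4 were above 0, with a median of 0.086. *Sdha*, the flavoprotein, was at 10.10 in the titled -/- array and 10.04 in the titled +/+ array, a difference of 0.040, with 0.17 in its other probe set. *Sdhb*, the iron-sulphur subunit, was at 10.51 in the titled -/- array and 10.42 in the titled +/+ array, a difference of 0.066. The membrane anchor *Sdhc* was at 9.02 in the titled -/- array and 8.78 in the titled +/+ array, a difference of 0.22, with 0.14 in its other probe set. *Sdhd*, also a membrane anchor, was at 9.56 in the titled -/- array and 9.43 in the titled +/+ array, a difference of 0.11, with -0.0079 in its other probe set.

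Complex III, the cytochrome *bc*1 complex, had 9 genes here, and all 9 were above 0 with a median of 0.094 and a range of 0.054 to 0.19. *Uqcrc1*, a core protein, was at 10.29 in the titled -/- array and 10.08 in the titled +/+ array, a difference of 0.19. *Uqcrh*, the hinge protein, was at 10.07 in the titled -/- array and 9.87 in the titled +/+ array, a difference of 0.17. *Uqcrc2*, the other core protein, differed by 0.094, with 0.042 in its other probe set. Of the catalytic subunits, *Cyc1*, cytochrome *c*1, was at 10.79 in the titled -/- array and 10.72 in the titled +/+ array, a difference of 0.054, and the Rieske protein gene *Uqcrfs1* at 9.74 in the titled -/- array and 9.62 in the titled +/+ array, a difference of 0.095. *Uqcrb* was at 12.55 in the titled -/- array and 12.46 in the titled +/+ array, a difference of 0.073. *Uqcrq* differed by 0.081 in its strongest probe set, at 9.91 in the titled -/- array and 9.81 in the titled +/+ array, while its 3 weaker probe sets, with mean levels of 5.08 and below, gave -0.50, -0.77 and -0.21.

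Complex V had 17 genes here, and all 17 were above 0 with a median of 0.056. In the catalytic F1 part, *Atp5b*, the beta subunit, was at 11.17 in the titled -/- array and 11.00 in the titled +/+ array, a difference of 0.15. *Atp5a1*, the alpha subunit, was at 11.46 in the titled -/- array and 11.31 in the titled +/+ array, a difference of 0.13, with 0.089 and 0.099 in its other probe sets. *Atp5c1*, *Atp5d* and *Atp5e*, which form the central stalk, differed by 0.026, 0.017 and 0.028. The weaker probe sets of *Atp5c1* and *Atp5d* gave 0.33 and -0.045, so the parts of F1 are not told apart by these values. The 3 genes of the *c* ring, *Atp5g1*, *Atp5g2* and *Atp5g3*, differed by 0.052, 0.052 and 0.087. The weaker probe set of *Atp5g2*, at a mean level of 5.13, gave -0.23. The peripheral stalk genes had a median of 0.076, with *Atp5j* highest at 0.16. In this stalk the weaker probe sets of *Atp5h* and *Atp5pb* gave -0.015 and -0.031, and that of *Atp5o* gave 0.030.

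The small membrane subunits of complex V held the gene of the largest difference in the complex. *Atp5md*, a subunit of the dimer interface, was at 9.23 in the titled -/- array and 8.90 in the titled +/+ array, a difference of 0.30 from a single probe set. *Atp5mpl* was at 10.19 in the titled -/- array and 9.98 in the titled +/+ array, a difference of 0.19. The remaining 3 of this group, *Atp5j2*, *Atp5k* and *Atp5l*, differed by 0.065, 0.026 and 0.035.

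Complex IV, cytochrome *c* oxidase, had the widest range, from -0.11 to 0.83, with 15 of 17 genes above 0 and a median of 0.12. Most ubiquitous subunits had small differences. *Cox4i1* was at 12.09 in the titled -/- array and 12.01 in the titled +/+ array, a difference of 0.060. *Cox5a*, *Cox5b* and *Cox6c* differed by 0.018, 0.14 and 0.16 in their strongest probe sets. The weaker probe sets of *Cox5a* gave -0.042 and -0.16, and that of *Cox6c* gave -0.044. Those of *Cox5b* ranged from -0.60, read at a mean level of 0.29, to 0.13. *Ndufa4*, once counted with complex I and now known as a subunit of complex IV, differed by 0.10. *Cox7a2l*, grouped here with complex IV, differed by 0.12.

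Among members with a mean level above 7.10, the heart and skeletal muscle isoforms *Cox6a2* and *Cox8b* had the largest differences, and that of *Cox7a1*, at a lower level, went the same way. *Cox6a2* was at 9.16 in the titled -/- array and 8.31 in the titled +/+ array, a difference of 0.83 or a ratio of 1.77. Its ubiquitous counterpart *Cox6a1* was at 12.20 in the titled -/- array and 12.13 in the titled +/+ array, a difference of 0.055. *Cox8b* was at 8.21 in the titled -/- array and 7.49 in the titled +/+ array, a difference of 0.69. Its counterpart *Cox8a* was at 10.61 in the titled -/- array and 10.45 in the titled +/+ array, a difference of 0.13. *Cox7a1* was at 7.22 in the titled -/- array and 6.83 in the titled +/+ array, a difference of 0.37. Its counterpart *Cox7a2* was at 12.03 in the titled -/- array and 11.98 in the titled +/+ array, a difference of 0.028. In each of these pairs the muscle isoform exceeded its partner in the difference, by 0.77 for *Cox6a2*, 0.56 for *Cox8b* and 0.34 for *Cox7a1*. As a mean over its 3 probe sets, which include a weak one at 1.20 in the titled -/- array and 0 in the titled +/+ array, *Cox8a* differed by 0.51, which brings the excess of *Cox8b* to 0.19. Each muscle isoform was read by 1 probe set, so these values have no repeat on the array. Above the median level, 1.90% of 6196 genes had a difference above 0.5, and *Cox6a2* and *Cox8b* were the members among them.

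Among the isoforms of other tissues, *Cox4i2* and *Cox6b2* did not share this pattern, while *Cox8c* went the same way as the muscle isoforms. *Cox4i2*, known from lung, was at 5.21 in the titled -/- array and 5.30 in the titled +/+ array, a difference of -0.11 at a low level. *Cox6b2*, known from testis, was at 7.52 in the titled -/- array and 7.54 in the titled +/+ array, a difference of -0.034. Their differences lay below those of their partners *Cox4i1* and *Cox6b1* by 0.17 and 0.077. *Cox8c*, also known from testis, was at 6.41 in the titled -/- array and 5.97 in the titled +/+ array, a difference of 0.42, and has no repeat.

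*Cox7c* was the exception among the ubiquitous subunits. Its stronger probe set was at 7.04 in the titled -/- array and 6.28 in the titled +/+ array, a difference of 0.74. The weaker one was at 5.59 in the titled -/- array and 4.14 in the titled +/+ array, a difference of 1.43. Both probe sets were higher in the titled -/- array, at levels below the median of all genes.

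**Figure D2:**
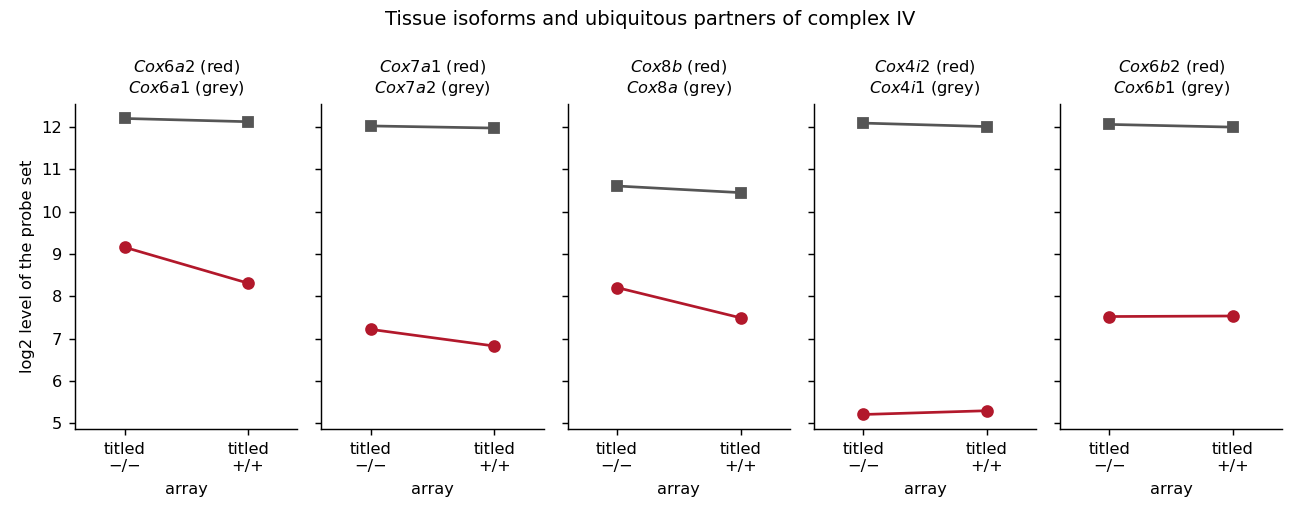
Log2 level in the titled -/- array (left) and the titled +/+ array (right) of 5 tissue isoforms of complex IV (red) and their ubiquitous partners (grey), where each line joins the single values of 1 gene. The slopes can be compared but the heights of different probe sets cannot. Levels are drawn before centring. *Cox6a2*, *Cox7a1* and *Cox8b* are higher in the titled -/- array by centred differences of 0.83, 0.37 and 0.69, while those of the partners reach 0.13.

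Markers of striated muscle and genes of fat cells were both higher in the same array as the muscle isoforms. All 11 genes of a list of muscle markers were higher in the titled -/- array, by 0.45 to 1.71 with a median of 0.74, and none was at 0 on either array. Their summed level on the linear scale was 33635 in the titled -/- array and 20554 in the titled +/+ array. Muscle creatine kinase, *Ckm*, was at 11.59 in the titled -/- array and 10.86 in the titled +/+ array, a difference of 0.70. Of a list of 5 fat cell genes, 4 were measured and all 4 were higher in the titled -/- array, with a median of 0.56 and none at 0. *Ucp1* and *Cidea*, known from brown fat, differed by 0.42 and 0.93, and *Adipoq* and *Fabp4*, which fat cells share more widely, by 0.41 and 0.71. The summed linear level of the 4 was 1423 in the titled -/- array and 875 in the titled +/+ array. In the opposite direction, all 4 markers of strial marginal cells were lower in the titled -/- array, with a summed linear level of 1255 in the titled -/- array and 1452 in the titled +/+ array, a median difference of -1.31 and none at 0. That median rests on *Kcnq1* and *Kcne1*, at -2.42 and -3.73 with mean levels of 4.62 and 2.58, while *Slc12a2* and *Atp1b2* differed by -0.21 and -0.024, and it was -0.28 with low values raised to the 25th percentile. All 3 measured markers of red blood cells were also lower in the titled -/- array, with a median of -1.49, or -0.45 with low values raised. Of these, *Hba-a1* and *Slc4a1* had low mean levels of 1.64 and 4.64. *Alas2*, the only 1 above the median gene level, differed by -0.44. The part of each of these tissues in the differences of the respiratory chain genes, the muscle isoforms among them, was not tested. Without the 6 tissue isoforms and the 5 assembly factors, 65 of 74 genes stayed above 0, with a median of 0.073. This choice was made after the data were seen, and it left out 4 assembly genes and 2 isoforms that were below 0. It does not separate the tissues, since ubiquitous subunits are made in muscle and fat as well.

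Sequences upstream of the transcription start are shown for the muscle isoforms *Cox8b* and *Cox7a1* and their ubiquitous partners *Cox8a* and *Cox7a2*, since the members of each pair had such unlike differences. They are the 250 bases before the start from RefSeq on GRCm38.p6, written 5′ to 3′ on the strand of the gene with each CG in capitals, at chr7:140900447-140900696 (minus strand), chr7:30183921-30184170 (plus), chr19:7217617-7217866 (minus) and chr9:79759854-79760103 (minus). The table used gives none for *Cox6a2*.
Cox8b: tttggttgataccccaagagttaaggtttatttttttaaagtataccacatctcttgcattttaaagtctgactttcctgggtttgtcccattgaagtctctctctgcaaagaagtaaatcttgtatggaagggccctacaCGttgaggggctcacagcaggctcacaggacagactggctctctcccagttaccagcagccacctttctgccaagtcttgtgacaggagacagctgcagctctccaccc
Cox7a1: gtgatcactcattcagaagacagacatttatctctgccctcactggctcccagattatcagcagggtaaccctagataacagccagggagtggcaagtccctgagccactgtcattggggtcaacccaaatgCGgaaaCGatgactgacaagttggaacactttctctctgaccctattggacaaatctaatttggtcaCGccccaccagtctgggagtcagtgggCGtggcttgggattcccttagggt
Cox8a: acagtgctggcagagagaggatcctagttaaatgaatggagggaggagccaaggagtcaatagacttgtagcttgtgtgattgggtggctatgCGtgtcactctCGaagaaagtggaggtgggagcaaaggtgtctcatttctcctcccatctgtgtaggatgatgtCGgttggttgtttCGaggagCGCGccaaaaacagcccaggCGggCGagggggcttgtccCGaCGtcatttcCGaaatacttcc
Cox7a2: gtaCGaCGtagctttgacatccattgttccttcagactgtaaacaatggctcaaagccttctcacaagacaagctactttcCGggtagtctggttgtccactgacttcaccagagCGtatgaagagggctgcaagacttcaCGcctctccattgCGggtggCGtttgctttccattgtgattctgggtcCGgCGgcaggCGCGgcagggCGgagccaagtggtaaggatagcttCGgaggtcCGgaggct
The muscle isoforms held 1 CG in *Cox8b* and 4 in *Cox7a1*, and the ubiquitous partners held 11 in *Cox8a* and 14 in *Cox7a2*. Such sequences were found for 70 of the 85 genes in 75 windows, with a median of 15 CG, against 13 over 12484 windows of other genes on the array. A count of 4 or fewer was found in 3 of the 75 windows of respiratory chain genes, those of *Cox8b*, *Cox7a1* and the complex I subunit *Ndufc2*, in 22.4% of those of other genes on the array and in 44.4% of all 32851 windows of the table.

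Motifs of factors known to act on respiratory chain genes were counted in the same windows on both strands. The NRF1 motif, searched as GCGCNTGCG, was in 16 of 75 windows (21.3%), against 5.19% of all windows and 8.68% of those of other genes on the array. The ETS motif that GABPA binds, CCGGAAG, was in 17.3%, against 6.91% and 10.9%. The YY1 motif, AAGATGGCG, was in 1.33%, against 0.606% and 0.953%. The E-boxes CAGCTG and CACCTG, of the kind that muscle regulators bind, were in 8.00% and 20.0%, against 13.0% and 17.2% of all windows and 12.4% and 16.6% of those of other genes on the array. The MEF2 motif, CTAAAAATA, was in 0 of 75 windows, against 0.469% of all windows and 0.296% of those of other genes on the array. At such low shares a count of 0 in 75 windows says little, and *Cox6a2* had no window. The CAGCTG of *Cox8b* lies 19 to 14 bases before its start. *Sdha* held the NRF1 motif at 3 places, shown here in capitals in its window at chr13:74350241-74350490 (minus strand).
Sdha: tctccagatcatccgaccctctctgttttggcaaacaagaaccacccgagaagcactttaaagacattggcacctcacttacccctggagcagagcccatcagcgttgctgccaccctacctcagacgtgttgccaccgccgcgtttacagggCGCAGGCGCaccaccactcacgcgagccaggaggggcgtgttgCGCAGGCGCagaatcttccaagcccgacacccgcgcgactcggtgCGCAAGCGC
A match is a description of the letters and not a measured site. Among the genes of these factors, *Nrf1* was at 7.38 in the titled -/- array and 7.24 in the titled +/+ array, a difference of 0.11. *Gabpa* was at 8.35 in the titled -/- array and 8.36 in the titled +/+ array, a difference of -0.031. *Yy1* was at 9.64 in the titled -/- array and 9.80 in the titled +/+ array, a difference of -0.19. Of 17 measured regulators of mitochondrial genes, 9 were above 0 and 8 below, with a median of 0.0037. Among these 8, *Ppard* was at a level of 0 on both arrays, so its difference is only the median subtracted.

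The groups below, most of them mitochondrial, had lower shares of genes above 0 than the respiratory chain genes. Of 15 measured genes of the citric acid cycle and pyruvate dehydrogenase, 11 were above 0. Their median of 0.11 was higher than the 0.071 of the respiratory chain genes. *Mdh2*, malate dehydrogenase, was at 11.18 in the titled -/- array and 11.00 in the titled +/+ array, a difference of 0.16. Of 74 mitochondrial ribosomal protein genes, 33 were above 0 and 41 below, with a median of -0.0077. The protein import genes had 12 of 22 above 0 with a median of 0.034, the fatty acid oxidation genes 7 of 14 with a median of -0.019, and the glycolytic genes 7 of 14 with a median of 0.0048. Without the probe sets ending in _x_at, _s_at or _a_at, which can also read other transcripts or several of 1 gene, the glycolytic median was 0.25. Of 19 genes of the vacuolar ATPase, 14 were above 0, with a median of 0.085 and a range of -1.61 to 1.17. Among electron carriers and membrane transporters, 11 of 21 were above 0 with a median of 0.018. In that list, cytochrome *c*, *Cycs*, was at 10.77 in the titled -/- array and 10.55 in the titled +/+ array, a difference of 0.20. The adenine nucleotide carriers went opposite ways: *Slc25a4*, the form of heart and muscle, was at 11.87 in the titled -/- array and 11.64 in the titled +/+ array, a difference of 0.21, and *Slc25a5* at 10.55 in the titled -/- array and 10.73 in the titled +/+ array, a difference of -0.20.

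The cytosolic ribosomal protein genes, another large family of high level, were also shifted, with 36 of 39 above 0 and a median of 0.072. These counts depended on the scaling of the arrays. After quantile normalization, 67 of 85 respiratory chain genes were above 0 with a median of 0.069, while 24 of 39 ribosomal genes were, with a median of 0.00070. After loess, these counts were 68 of 85 and 28 of 39, with medians of 0.064 and 0.020. Whether the families differ from each other was not tested.

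**Figure D3:**
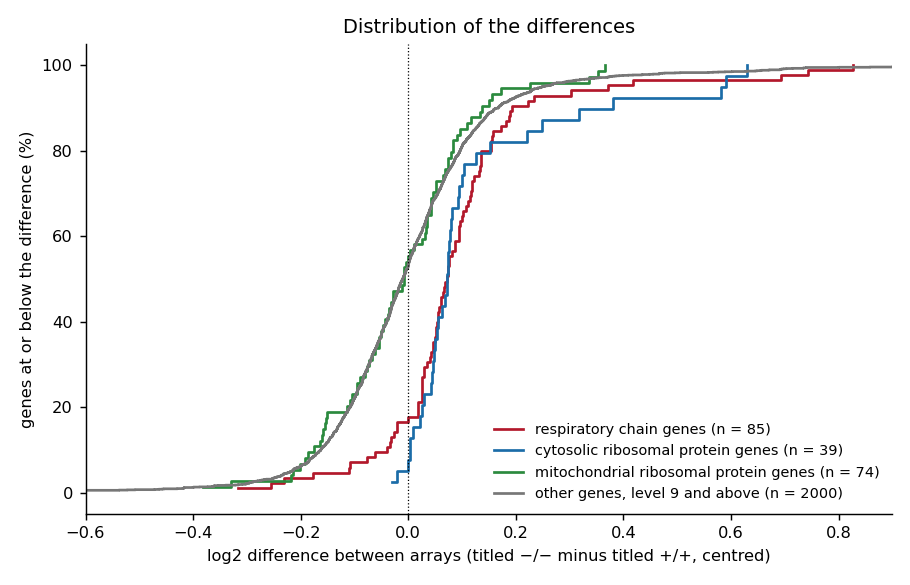
Share of genes (%) at or below each log2 difference (titled -/- minus titled +/+, centred) for 85 respiratory chain genes, 39 cytosolic and 74 mitochondrial ribosomal protein genes, and 2000 other genes of level 9 and above; 4 curves of 1 value per gene, drawn from -0.6 to 0.9. The curve of the respiratory chain genes lies right of that of the other genes over most of its length and crosses 0 with 70 genes still above, while 33 of 74 mitochondrial ribosomal genes are above 0.

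The repeat measurement by other probe sets bears on these small differences. Of the 115 probe sets of these genes with a level of 9 and above, 94 were above 0 and 21 below, with a median of 0.069. Of the 42 weaker ones, 21 were above and 21 below, with a median of 0.025. Of 33 genes with several probe sets of level 9 and above, 20 had all of them on the same side of 0. Within these genes the pooled SD was 0.084, as it was over all genes of that level, and it was 0.27 for the weaker probe sets. Over all levels, 20 of 45 genes with several probe sets had some on either side of 0, so the sign of a single gene is weakly determined at these sizes.

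**Figure D4:**
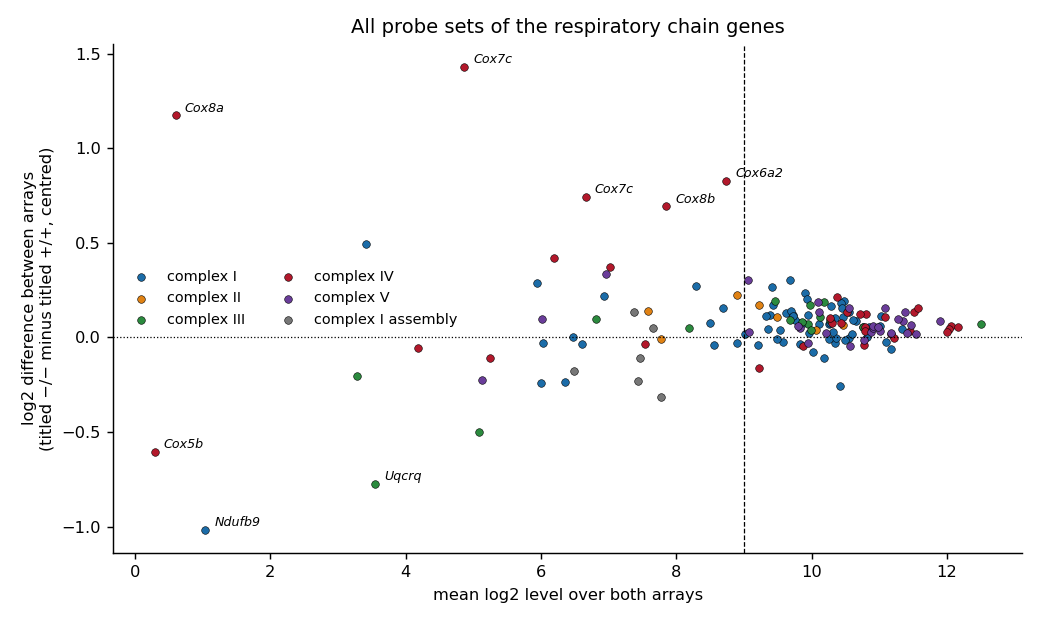
Centred log2 difference (titled -/- minus titled +/+) against the mean log2 level for all 157 probe sets of the respiratory chain genes, coloured by complex, with the dashed line at a level of 9. To the right of it 94 of 115 points lie above 0, to the left 21 of 42, and the widest differences, such as 1.43 for *Cox7c*, were read at low levels.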

How the data were processed

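Deposited log2 levels of 2 MOE430A arrays were analysed, 1 per title. The authors hybridised biotin-labelled cRNA, and their methods name MAS5.0, RMA and multi-mgMOS of PUMA; the sources used here do not state which of these made the deposited log2 values or how the arrays were scaled to each other. The base was read from the range of the values. Values of exactly 0 were listed for 1028 probe sets in the titled -/- array and 1310 in the titled +/+ array, and the median levels were 6.63 in the titled -/- array and 6.58 in the titled +/+ array. Of 22690 probe sets, 64 controls were left out, and 20380 of the rest name 1 gene in the platform annotation, 691 several and 1555 none. Where several probe sets read a gene, the one with the highest mean level stands for it. Symbols of all 85 members matched RefSeq through their gene identifiers.

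Differences were centred on their median. The number of arrays limits the precision, and with 1 array per title nothing could be tested. The alternatives were no centring, quantile normalization, loess with a span of 0.3, values under the 25th percentile raised to it, means over probe sets, probe sets ending in _x_at, _s_at or _a_at left out, current symbols, levels above the median of all genes, and sizes of 0.5 and 1 in place of 0.25. Leaving out the tissue isoforms and assembly factors, and centring on the other genes of level 9 and above, were added after the data were seen, as were the level of 9, the promoter counts and the cytosolic ribosomal list. The members and the gene lists (13 lists, 201 entries, 162 measured) were chosen with earlier results of these data known. Genes named are the 5 largest differences in each direction above the median level, the 2 genes of the highest level in each complex, the isoform pairs and complex II, and up to 4 genes of the highest level in each other list. Further members, among them *Cox7c* and *Ndufb7*, were named after their values were seen. So were *Otos*, *Slc25a5*, *Nrf1*, *Ppard*, *Acad9*, *Timmdc1*, *Foxred1* and *Ecsit*. Centring and normalization were tested on simulated data with known differences. Python 3.11.15, numpy 2.4.6, pandas 2.3.3, statsmodels 0.14.6 and matplotlib 3.10.9 were used.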

Additional observations from a re-analysis of the deposited data

How the results depend on the processing

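The count of respiratory chain genes above 0 ranged from 64 to 73 under settings that keep all 85 genes (means over probe sets and no centring), and was 49 of 64 without the probe sets ending in _x_at, _s_at or _a_at. The median difference lay between 0.059 (low values raised to the 25th percentile) and 0.093 (no centring), and its direction did not turn in any setting. Centred on the other genes of level 9 and above, 71 genes were above 0. The sign of 79 of the 85 genes was kept under no centring, quantile normalization and loess alike. The medians of complexes I to V and of the assembly genes, and the differences of the isoform pairs, kept their direction in all settings that gave a value.

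The count of genes above 0.25 was 3 at a size of 0.5, 0 at a size of 1, 10 without the probe sets ending in _x_at, _s_at or _a_at, and 2 without tissue isoforms and assembly factors. The count below -0.25 was 1 without centring, 0 at 0.5 and at 1, and 1 without isoforms and assembly factors, which also left 9 genes below 0. *Ndufa12* turned to 0.076 when its probe sets were averaged and to 0.29 without the named endings. Among other lists with medians near 0, the carriers turned to -0.0031, import to -0.0064, regulators to -0.018 and fatty acid oxidation to 0.055 as means over probe sets. Without centring fatty acid oxidation was 0.0030 and the mitochondrial ribosome 0.014, without the named endings fatty acid oxidation was 0.019 and the cytosolic ribosome 0.27, and with raised low values glycolysis was -0.0079. Glycolysis was 0.25 without the named endings, and the assembly list 0.0047 as a mean over probe sets and 0.030 without the named endings. The strial list was -0.28 with raised low values and -0.12 above the median level. The erythroid list, with a median of -1.49, was -0.45 with raised low values, -0.44 above the median level and -2.23 without the named endings. The causes were not tested. No paired analysis was possible because each title has 1 array. Signal over background limits the genes of low level, such as *Cox4i2* and *Cox7c*.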
